A study of Mus musculus with 31 samples.

Results

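Mbp, Pmp22, Mag, Prx, Mal, Ncmap, Cldn19 and Egr2 are 8 genes of Schwann cells and myelin among the 55536 genes counted. They were followed as a measure of glial RNA through 31 mouse libraries from a ribosome pull-down, with or without a tagged ribosome. They were selected on results already known from these data, so their levels, fold changes and calls are a description, and nothing is read from the calls beyond their count beside that of all genes. P-values are printed only for genes of 13 lists of glial, stromal and neuronal markers. These lists, too, were drawn up with earlier results known, so their p-values are not independent evidence. Translating ribosome affinity purification (TRAP) pulls a GFP-tagged ribosomal protein, L10a, out of tissue together with the RNA on its ribosomes. All mice carried the L10a-eGFP-fl/fl allele. Mice with Nav1.8-Cre, which is driven from the sodium channel gene Scn10a and so marks mostly nociceptors, switch the tag on in that lineage (Cre libraries). Mice without Cre were taken through the same steps and gave the controls, whose libraries hold RNA recovered without a tagged ribosome. The tissue was lumbar dorsal root plus spinal cord for central axons, sciatic nerve for peripheral axons and lumbar dorsal root ganglia for somas. Batch 1 held central axons and somas, 4 Cre and 4 control libraries of each. Batch 2 held peripheral axons, with 4 Cre and 3 control libraries, and a second set of somas, 4 of each. The labels call the libraries biological replicates. Age, sex and the number of mice pooled for a library are not given in the sources used here.

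Myelin is the stack of glial membrane around axons. Schwann cells make it in nerves and dorsal roots, and oligodendrocytes make it in the spinal cord, with some proteins in common and others made by one of these cells only. The Schwann cell programme is switched on by the zinc finger factor Egr2 together with Sox10, under the control of neuregulin from the axon. The 8 genes are best known from glia, and the tissue of every group contains glia.

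A library held between 3.60 and 19.6 M counts in all, and 3 counts, taken as the smallest detectable amount, corresponded to between 0.153 and 0.833 CPM. Levels are given in CPM, in which the counts of a library are scaled to a common total. Scn10a, the driver gene of the Cre line, was at 45.1 to 421 CPM in the central axon Cre libraries against 0 to 29.9 CPM in their controls. It was at 42.1 to 304 CPM in the peripheral axon Cre libraries and at 0 to 127 CPM in their controls, so these groups overlapped, and both sets of somas held it with and without Cre. One soma control of batch 1, replicate 3, stood apart, with 4934 genes of at least 10 counts and a scaling factor of 0.0547, and the 8 genes summed to 8.74 CPM in it. All soma controls of batch 1 had few such genes, 4934 to 7889, against 12502 to 14015 in the soma Cre libraries of that batch. Central axon controls had 7251 to 15153, against 15035 to 15952 with Cre. Whether a count of 0 in such controls reflects a low level or few genes recovered was not tested. Fewer cells of a type in a bulk library and less RNA per cell cannot be told apart.

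Per kilobase of exon (RPKM, the CPM divided by the merged exon length), the 8 genes spanned a wide range in nerve. In the peripheral axon Cre libraries Pmp22 was highest at 1352 ± 1114 RPKM (mean ± SD, n = 4), followed by Mbp at 540 ± 345 RPKM and Mal at 263 ± 174 RPKM. Ncmap was at 181 ± 153 and Prx at 164 ± 82.8 RPKM. The lowest were Cldn19 at 56.1 ± 20.1, Mag at 52.4 ± 29.7 and Egr2 at 41.2 ± 27.9 RPKM. The controls had nearly the same means, 1366 ± 672 RPKM for Pmp22 and 458 ± 162 RPKM for Mbp (n = 3). Between neighbours in this order the gap was smaller than the larger SD, except between Prx and Cldn19.

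Peripheral nerve held high levels of all 8 transcripts, and for each of them the libraries with and without Cre overlapped. Mbp encodes myelin basic protein, which holds the inner faces of the myelin membrane together in both kinds of myelin. It was at 8918, 3086, 2698 and 3605 CPM in the 4 peripheral axon Cre libraries and at 5125, 2412 and 4086 CPM in the 3 controls. Pmp22, a membrane protein of compact peripheral myelin, was at 7101, 1563, 2079 and 1984 CPM with Cre and at 3934, 1402 and 4308 CPM without. Mal, a lipid raft protein made by both myelinating glia, was at 1423, 352, 456 and 696 CPM with Cre and at 610, 362 and 1153 CPM without. Cre replicate 1 was the highest of its group for each of these, and the 2 groups overlapped for all of them.

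The other 5 genes belong to non-compact myelin, to the Schwann cell surface or to its regulation. Prx encodes periaxin, which ties the outer Schwann cell membrane to the basal lamina. Its levels were 1352, 735, 350 and 1226 CPM in the Cre libraries and 881, 1356 and 1276 CPM in the controls. Ncmap, a protein of non-compact peripheral myelin, was at 914, 210, 227 and 262 CPM against 331, 137 and 418 CPM. Cldn19, a claudin of the tight junctions that Schwann cells form with themselves, was at 347, 138, 230 and 242 CPM against 252, 158 and 245 CPM. Mag, the glycoprotein by which both glia hold on to the axon, was at 315, 143, 79.3 and 316 CPM against 260, 116 and 390 CPM. Egr2 was at 263, 50.5, 82.5 and 163 CPM against 120, 75.7 and 340 CPM. In all 5 the ranges of the Cre and control libraries overlapped.

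Fold changes of Cre over control in peripheral axons lay close to 0. They ran from -0.33 ± 0.49 (log2, ± SE) for Prx to 0.53 ± 0.56 for Ncmap, with a median over the 8 genes of 0.11 against 0.07 over all 13970 genes tested. None of the 8 was called at an adjusted p under 0.05, and neither was any other gene (0.00% called by edgeR, with 514 genes at an unadjusted p under 0.05, 27 called by DESeq2 and 0 by limma voom). The median of the 8 ran from -0.36 without Cre replicate 1 to 0.32 without Cre replicate 2, and it was also below 0 without control replicate 2 (-0.11). The fibroblast markers had fold changes below 0 in 6 of 6 genes (median -1.33) and the muscle markers in 5 of 5 (median -2.53), none of them called.

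**Figure D1:**
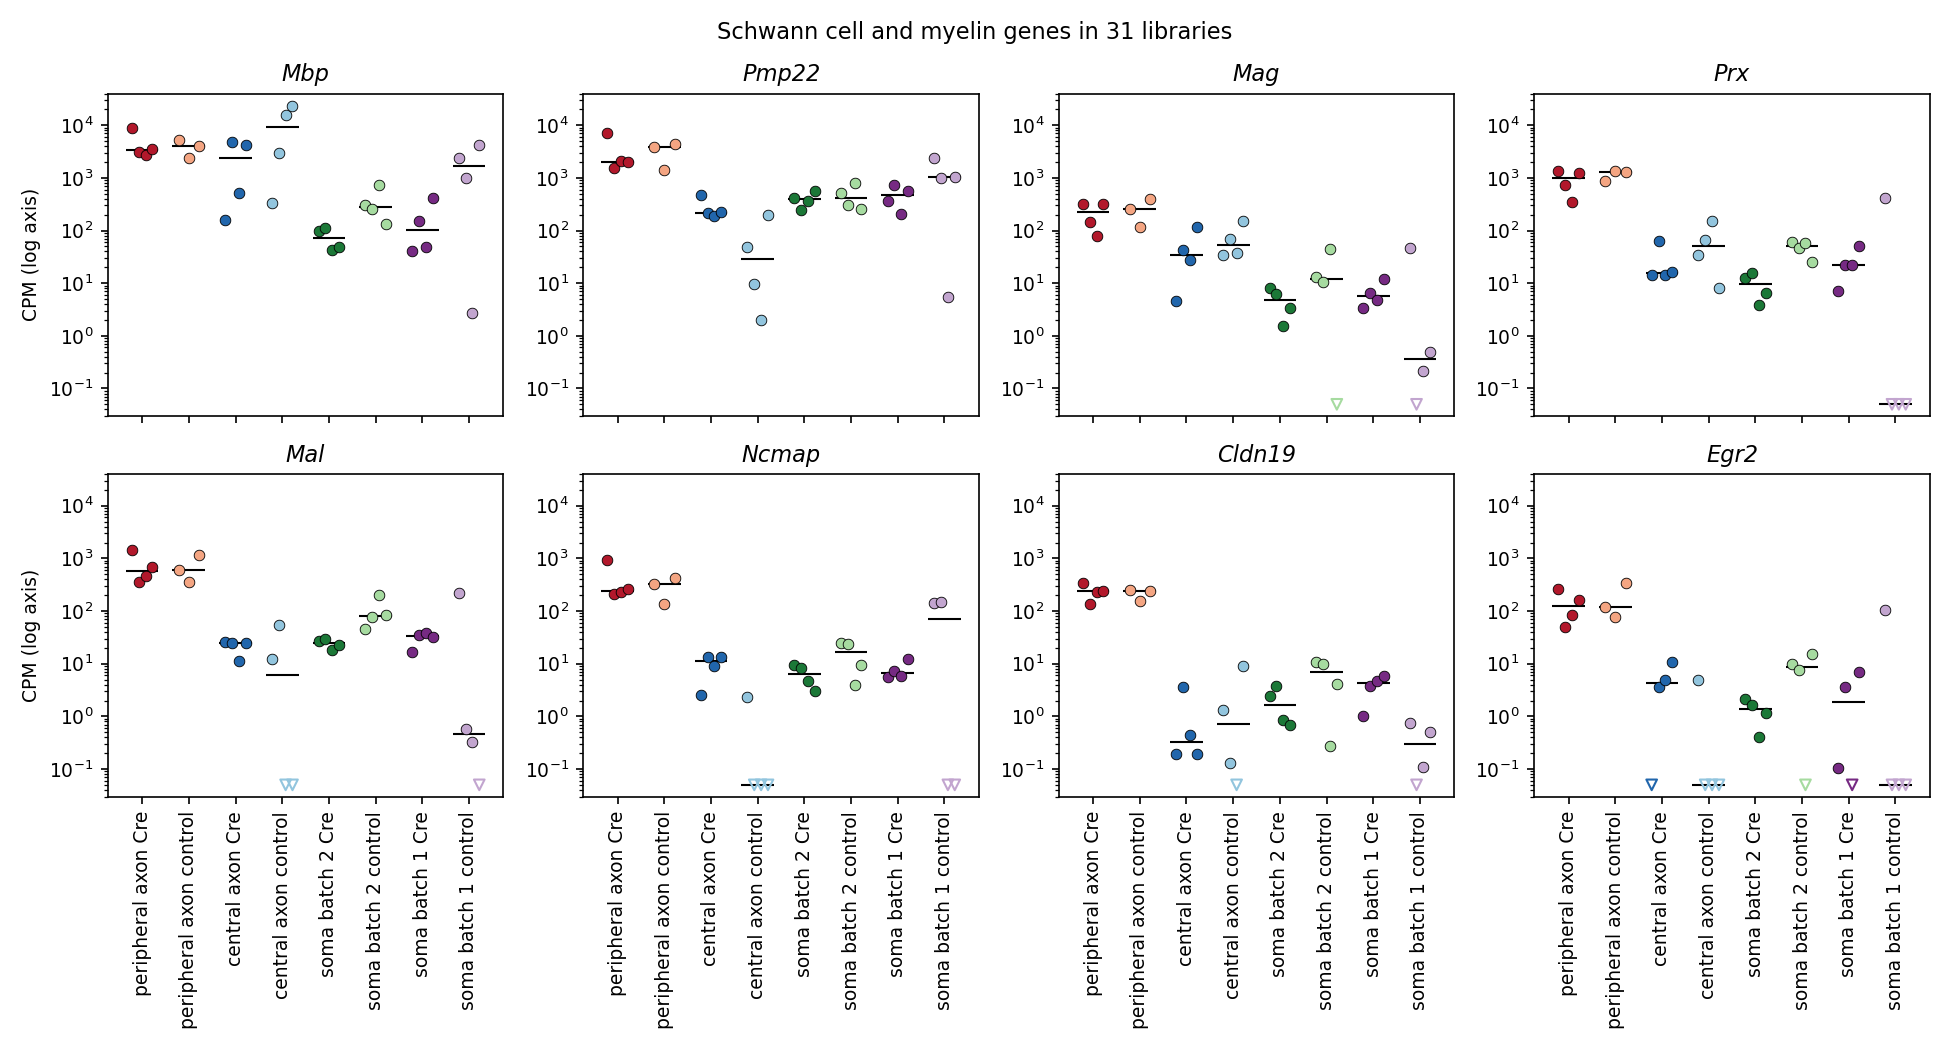
CPM (log axis) of each of the 8 genes in every library, by group; points are libraries, bars are group medians (at the foot where 0), and open triangles at the foot mark libraries with 0 counts. Peripheral axon libraries with and without Cre overlap in every panel, and only Mbp and Mag reach comparable levels in central axon libraries.

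Ranked by median CPM over the 8 groups, the 2 peripheral axon groups came first for 7 of the genes. For Mbp the central axon controls came first, at a median of 9257 CPM, followed by peripheral axon controls at 4086, peripheral axon Cre libraries at 3346 and central axon Cre libraries at 2384 CPM. Neighbouring groups in these orders seldom differed beyond their spread. Of the 7 neighbouring pairs, 0 were without overlap for Mbp, Pmp22 and Mag, 1 for Prx, Cldn19 and Egr2, and 2 for Mal and Ncmap.

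Against somas of the same batch, the peripheral axon Cre libraries were far richer in all 8 genes. The soma Cre libraries of batch 2 held Prx at 12.6, 15.4, 3.77 and 6.52 CPM, Cldn19 at 2.44, 3.73, 0.866 and 0.687 CPM, and Egr2 at 2.12, 1.67, 0.407 and 1.14 CPM. The others ran from 42.1 to 112 CPM for Mbp, 246 to 560 CPM for Pmp22, 1.53 to 8.18 CPM for Mag, 18.6 to 29.0 CPM for Mal and 3.03 to 9.62 CPM for Ncmap. The smallest peripheral axon Cre value exceeded the largest of these somas for every one of the 8 genes. The log2 fold changes were 6.76 ± 0.57 for Cldn19, 6.48 ± 0.61 for Egr2, 6.36 ± 0.56 for Prx and 5.74 ± 0.57 for Ncmap. Those of the genes that oligodendrocytes also make were 5.70 ± 0.54 for Mbp, 5.25 ± 0.57 for Mag and 4.67 ± 0.42 for Mal. Pmp22 had the smallest difference, 2.74 ± 0.50. All 8 were called higher, in a comparison in which 31.2% of the 15467 genes tested were called and 18.7% were called higher. The 2 groups did not overlap for any of the 8, which held with the axons above the somas for 18.6% of all genes tested. The median fold change of the 8 was 5.72, against -0.03 for all genes tested, and the 8 genes remained called when any 1 library was left out. Nociceptor markers moved the other way, with 8 of 10 lower, Scn10a among them (-1.39 ± 0.49, edgeR adjusted p = 0.0492).

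Other parts of the Schwann cell programme, taken from the lists, were tested in the same fit. Of the 7 Schwann-restricted markers all were higher in peripheral axons than in somas, among them Gldn, which gathers sodium channels at nodes (7.51 ± 0.59, edgeR adjusted p = 2.22e-05). Cdh19, a cadherin of the Schwann lineage, rose by 6.10 ± 0.65 (7.7e-05) and Foxd3, a neural crest factor, by 4.90 ± 0.56 (0.000107). Of the 7 myelin genes that both glia use, 6 rose, among them the connexin gene Gjc3 (7.39 ± 0.55, 2.13e-05), Pllp (5.39 ± 0.48, 2.79e-05) and Sox10 (4.36 ± 0.43, 4.72e-05). The exception was the tetraspanin gene Cd9, whose fold change was -1.02.

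Regulators and receptors of the pathway rose as well, 11 of 16 of them and none lower. The receptor pair for neuregulin, Erbb3 and Erbb2, rose by 5.82 ± 0.58 (edgeR adjusted p = 5.34e-05) and 4.67 ± 0.51 (8.81e-05). Lgi4, a secreted Schwann cell signal, rose by 5.28 ± 0.48 (3.04e-05). The transcription factors Pou3f1, which acts ahead of Egr2, Tead1 and Zeb2 rose by 6.36 ± 0.59 (3.47e-05), 5.43 ± 0.52 (4.31e-05) and 3.72 ± 0.36 (4.42e-05). Nab1 and Nab2, the partners through which Egr2 acts, rose by 3.24 ± 0.63 (0.00283) and 1.65 ± 0.40 (0.00938). In the axon-contact and basal lamina group 8 of 10 rose, among them Itga6 (4.65 ± 0.39, 2.51e-05), Epb41l2 (3.68 ± 0.31, 2.51e-05) and Dag1 (3.26 ± 0.31, 4.42e-05), and 1 fell, the axonal adhesion gene Cntn1 (-1.30 ± 0.42, 0.0337). Erbb3, Erbb2, Nab1 and Nab2 were named here for their roles after their values were seen. Genes on the opposite strand cover 44.9% of the exon bases of Lgi4, 42.2% of those of Nab2 and 54.2% of those of Pllp, whose counts are therefore less certain.

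The 3 enzymes of myelin galactolipids rose strongly, Ugt8a by 6.95 ± 0.72 (edgeR adjusted p = 6.48e-05), Fa2h by 6.29 ± 0.62 (5.05e-05) and Gal3st1 by 5.01 ± 0.44 (2.79e-05). Of the cholesterol pathway, which neurons and glia both run, Fdft1 fell (-1.21 ± 0.34, 0.0188). Over all 10 lipid enzymes, 4 rose, 1 fell and 5 did not pass. Fibroblast markers rose in 6 of 6 genes and skeletal muscle markers in 4 of the 4 tested. The summed level of the 6 fibroblast markers was 3816 to 6686 CPM in the peripheral axon Cre libraries and 173 to 364 CPM in the batch 2 soma Cre libraries. Their part in the fold changes of the 8 genes was not tested. Of the other lists, 2 of 6 satellite glial markers, 1 of 5 macrophage markers, 2 of the 3 oligodendrocyte markers tested and 1 of the 4 astrocyte markers tested rose. The 1 spinal neuron marker tested fell.

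**Figure D2:**
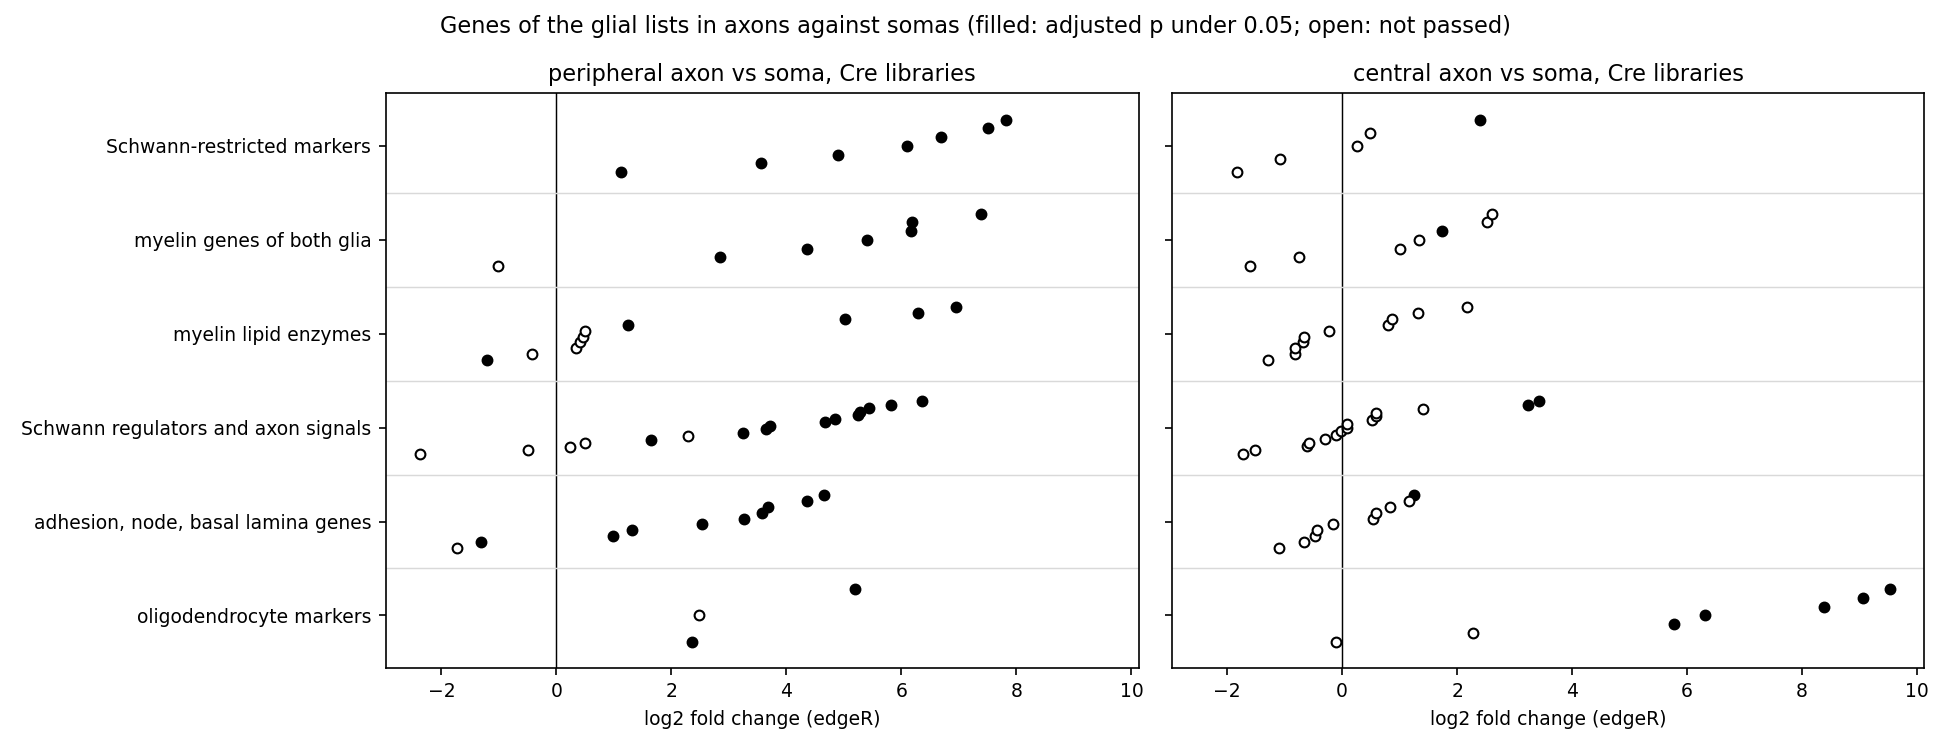
Log2 fold changes (edgeR) of the genes of 6 lists in peripheral axon (left) and central axon (right) Cre libraries over the soma Cre libraries of the same batch; filled points passed an adjusted p under 0.05. In peripheral axons all 7 Schwann-restricted markers passed, and in central axons 1 of them passed beside 5 oligodendrocyte markers.

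Because the 8 genes were high together in nerve, the stretch upstream of their start sites was searched for 2 short motifs, that of EGR factors (GTGGGNG) and that of SOX factors (ACAAAG or ACAATG), on both strands; no hits of the 2 overlapped. RefSeq promoters of the GRCm38.p6 assembly were at hand for 7 of the 8 genes, and the 250 bases before the start nearest to the gene model's were used. An EGR motif lay in 5 of these 7 (Mag, Prx, Ncmap, Cldn19 and Egr2) and a SOX motif in 1 (Mag). Several genes have more than 1 promoter entry. Over all 18 entries of the 7 genes, 6 held an EGR motif (33.3%), against 28.1% of all 32851 promoters, and 2 held a SOX motif (11.1%), against 25.2%. Shown here are those of the Schwann cell genes Prx (chr7:27499074-27499323, + strand), Ncmap (chr4:135398228-135398477, - strand) and Cldn19 (chr4:119255191-119255440, + strand), 5′ to 3′ along the gene's strand with the EGR motif in capitals:
Prx: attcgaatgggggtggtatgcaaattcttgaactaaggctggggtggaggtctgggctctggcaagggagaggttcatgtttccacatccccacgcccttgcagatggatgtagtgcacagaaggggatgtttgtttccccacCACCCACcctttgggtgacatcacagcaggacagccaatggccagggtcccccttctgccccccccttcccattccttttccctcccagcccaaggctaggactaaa
Ncmap: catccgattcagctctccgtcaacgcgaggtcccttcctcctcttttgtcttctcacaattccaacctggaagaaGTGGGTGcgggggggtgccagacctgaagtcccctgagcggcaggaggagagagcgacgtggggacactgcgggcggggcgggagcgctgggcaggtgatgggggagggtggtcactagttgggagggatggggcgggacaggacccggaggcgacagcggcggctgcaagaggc
Cldn19: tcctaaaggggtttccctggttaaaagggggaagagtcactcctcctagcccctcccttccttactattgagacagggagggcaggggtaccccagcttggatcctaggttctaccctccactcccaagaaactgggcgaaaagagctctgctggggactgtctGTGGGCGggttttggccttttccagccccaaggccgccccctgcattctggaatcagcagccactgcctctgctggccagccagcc
The motif began 107 bases before the start in Prx, 175 in Ncmap and 86 in Cldn19. These are matches of letters and not measured binding sites. Their guanine and cytosine content was 56.4%, 66.0% and 59.2%.

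In the gene models of GENCODE M21, on GRCm38, Prx and Mag lie on chromosome 7, at 27499324 to 27520214 and 30899176 to 30914873. Ncmap (135369576 to 135398227) and Cldn19 (119255414 to 119262438) lie on chromosome 4, Pmp22 on chromosome 11 at 63128982 to 63159547, and Mal on chromosome 2 at 127633226 to 127656695. Egr2 lies on chromosome 10 at 67535475 to 67542188 and Mbp on chromosome 18 at 82475146 to 82585637. An annotated gene on the opposite strand covers 5.38% of the exon bases of Prx and 2.11% of those of Cldn19. Whether the counting used strand is not given in the sources used here, so a small share of these counts could belong to those partners.

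In the ganglia of batch 2, 7 of the 8 genes had a fold change of Cre over control below 0, though edgeR called none; Pmp22, at 0.04, was at -0.03 with DESeq2 and with RLE scaling. Mbp was at 97.5, 112, 42.1 and 48.9 CPM in the 4 Cre libraries and at 309, 252, 743 and 132 CPM in the 4 controls. Prx was at 12.6, 15.4, 3.77 and 6.52 CPM against 60.7, 46.4, 56.9 and 24.8 CPM, and Mal at 26.9, 29.0, 18.6 and 22.6 CPM against 46.5, 78.4, 205 and 85.9 CPM. Each of these Cre values lay below each control value, although for Mbp the groups overlapped once libraries were scaled by the trimmed mean of M-values (TMM). Mag, Ncmap, Cldn19 and Egr2 overlapped between the groups. In control replicate 7, for example, Cldn19 was at 0.278 CPM, from 1 count, and Egr2 at 0.

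Fold changes of Cre over control in the batch 2 somas were -2.43 ± 1.20 for Egr2, -2.06 ± 0.54 for Prx, -1.98 ± 0.49 for Mbp and -1.80 ± 0.43 for Mal. They were -1.53 ± 1.16 for Mag, -1.49 ± 1.08 for Cldn19 and -1.05 ± 0.77 for Ncmap. The median was -1.67 over the 8 genes and 0.06 over all genes tested. By edgeR none of the 8 was called and no gene of 15280 was (0.00% called by edgeR, with 2503 genes at an unadjusted p under 0.05, 1160 called by DESeq2 and 0 by limma voom). Prx and Mal did not overlap between the groups on the TMM scale, with Cre lower, which held for 5.19% of all genes tested. DESeq2 called 3 of the 8 (Mbp, Prx and Mal), and the count was 2 when control replicate 5 or control replicate 7 was left out. Over all genes, 1826 and 496 were called in those fits.

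Pmp22 stood outside this pattern. It was at 421, 246, 367 and 560 CPM in the batch 2 soma Cre libraries and at 516, 307, 812 and 252 CPM in the controls, a fold change of 0.04 ± 0.38. In the soma Cre libraries it was 169 ± 55.2 RPKM (n = 4) in batch 2 and 199 ± 99.4 RPKM (n = 4) in batch 1, whereas Prx was at 1.72 ± 0.96 and 4.60 ± 3.32 RPKM. Pmp22 made up 76.0 to 93.1% of the summed RPKM of the 8 genes in each batch 2 soma Cre library and 74.5 to 90.6% in each of batch 1. In peripheral axon Cre libraries it made up 41.4 to 55.1%, so the groups did not overlap in that share.

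**Figure D3:**
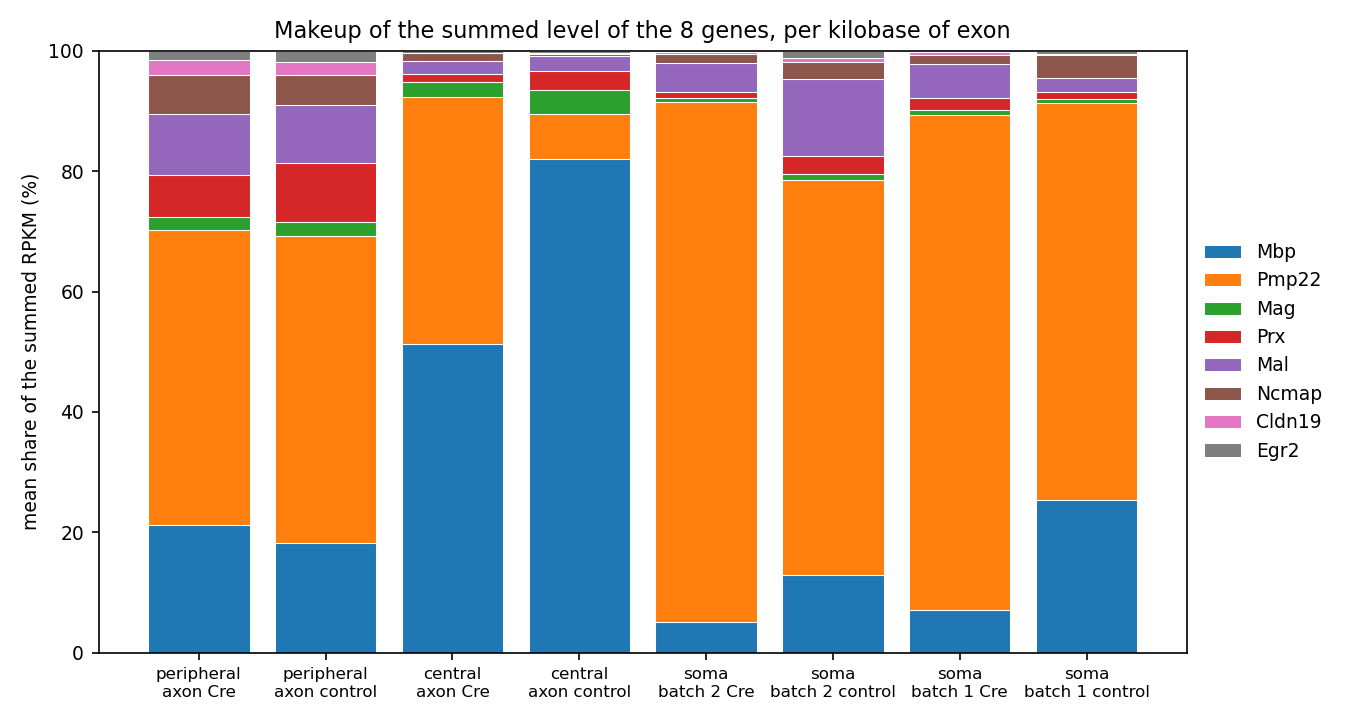
Mean share of each gene in the summed RPKM of the 8 genes, per group (mean over 3 or 4 libraries, in percent). Pmp22 takes most of the sum in somas, Mbp takes most of it in central axon controls (82.0%), and the peripheral axon groups with and without Cre have nearly the same makeup.

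Of the list genes in the batch 2 somas none passed the adjustment in edgeR, and the lists differed in direction. The myelin lipid enzymes had 5 genes above and 5 below 0 (median -0.21), the 4 astrocyte markers tested had 2 and 2, and of the 6 shared myelin genes tested 1 was above 0. Of the 16 regulators 16 had a fold change below 0, with Zeb2 at -2.50 ± 0.47 (edgeR adjusted p = 0.0583) and Tead1 at -2.61 ± 0.59 (0.0705). Gjc3 was at -3.12 ± 0.73 (0.0723). Among satellite glial markers, Fabp7 was at -3.75 ± 0.66 (0.0572) and Ednrb at -3.37 ± 0.65 (0.0583). The fibroblast genes Col3a1 (-3.26 ± 0.51, 0.051) and Col1a2 (-3.06 ± 0.48, 0.051) were also below 0, and the 6 fibroblast markers summed to 173 to 364 CPM with Cre and 907 to 3656 CPM without. The nociceptor markers had a median of 0.48, with 6 of 10 above 0.

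In batch 1 the controls of the somas disagreed with one another, and 1 library carried most of the Schwann cell signal. Prx was at 410 CPM in control replicate 1 and at 0 in the other 3 controls, and Egr2 was at 105 CPM in that library and at 0 in the others. Mal was at 220 CPM there and at 0 to 0.587 CPM in the others. Ncmap was at 140 CPM in replicate 1, at 151 CPM in the unnumbered replicate a, and at 0 in the remaining 2. Mbp was at 2387, 979, 2.70 and 4223 CPM in replicates 1, a, 3 and b, and b had no count of Prx, Mal, Ncmap or Egr2.

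The soma Cre libraries of batch 1 were more alike. Mbp was at 41.5, 151, 49.5 and 423 CPM, Prx at 7.04, 22.4, 21.9 and 51.3 CPM, and Ncmap at 5.49, 7.30, 5.87 and 12.0 CPM. Pmp22 was at 357, 739, 207 and 569 CPM with Cre and at 2389, 1011, 5.39 and 1024 CPM without. Mag ran from 3.42 to 11.8 CPM, Mal from 16.6 to 37.7 CPM, Cldn19 from 1.04 to 5.95 CPM and Egr2 from 0 to 7.01 CPM in the Cre libraries. Replicate 4 was the highest of the Cre libraries for 6 of the 8 genes. Cre over control, the fold changes were -3.82 ± 1.66 for Mbp, -3.46 ± 2.02 for Ncmap, -2.10 ± 2.21 for Prx, -1.48 ± 1.30 for Pmp22, -1.11 ± 1.86 for Mag and -0.97 ± 1.89 for Mal. Their median was -1.79, against -0.45 for all 11667 genes tested, and Cldn19 and Egr2 did not pass the filter on low counts. By edgeR none was called, where 4.42% of the genes tested were (516 genes). DESeq2 called 1, Mbp at -4.19, and so did the fit without the filter and the fit of all 4 groups. Over all genes, these called 1902, 1700 and 2114. By median CPM the Cre libraries were higher than the controls for Mag (5.64 against 0.358), Prx (22.2 against 0), Mal (33.9 against 0.455), Cldn19 (4.27 against 0.304) and Egr2 (1.85 against 0), and lower for the other 3. Without control replicate 1 the median turned to 2.39, over the 7 genes that then passed the filter. Without control replicate 3, the library that stood apart, the median was -2.09 over all 8 genes and the count of calls was 2. In that fit 3094 of all genes were called.

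Central axon libraries varied in makeup and held little of the Schwann cell genes. Mbp made up 8.03 to 81.2% of the summed RPKM of the 8 genes in the Cre libraries and Pmp22 13.2 to 85.9%. Pmp22 was above Mbp in replicates 1 (201 against 18.8 RPKM) and 3 (81.5 against 61.5 RPKM), and Mbp was above Pmp22 in replicates 2 and 4. Mbp was at 159, 4702, 521 and 4246 CPM in the 4 Cre libraries and at 326, 2920, 15593 and 23195 CPM in the controls. Mag was at 4.62, 42.0, 27.3 and 115 CPM with Cre and at 34.4, 68.8, 37.8 and 151 CPM without. Prx was at 14.2, 62.7, 14.4 and 16.5 CPM with Cre and at 34.5, 65.3, 153 and 7.98 CPM without. Cre replicates 2 and 4 were high for Mbp and Mag, while Prx was high in replicate 2 only. Mal was at 25.8, 24.6, 11.1 and 24.3 CPM with Cre and at 12.0, 53.9, 0 and 0 CPM without.

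Genes known from Schwann cells and not from oligodendrocytes were near the detection limit in several of these libraries. Cldn19 was at 0.189, 3.68, 0.452 and 0.191 CPM in the central axon Cre libraries, from 2, 41, 5 and 2 counts. It was at 1.29, 0.128, 0 and 9.01 CPM in the controls. Egr2 was at 0, 3.68, 4.97 and 10.9 CPM with Cre, and at 4.85 CPM in control replicate 1 and 0 in the other 3 controls. Ncmap was at 2.55, 13.5, 9.13 and 13.2 CPM with Cre, and at 2.34 CPM in control replicate 1 and 0 in the other 3. The 2 controls with the most Mbp of all 31 libraries, replicates 3 and 4, had no count of Mal, Ncmap or Egr2.

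Oligodendrocyte markers were also high in these libraries. The 12 of them summed to 101 to 987 CPM in the central axon Cre libraries and to 319 to 3804 CPM in the controls, against 45.0 to 168 CPM in peripheral axon Cre libraries. Mog, which oligodendrocytes make and Schwann cells do not, was at 0.755, 12.1, 1.45 and 26.6 CPM in the central axon Cre libraries and at 2.02, 0, 0 and 27.5 CPM in their controls. It was at 0 in all 7 peripheral axon libraries, where Mbp was at 2412 CPM or more. Mog at 0 beside high Mbp was thus seen in central axon controls 2 and 3 too, where the oligodendrocyte markers summed to 579 and 2772 CPM. The 7 Schwann-restricted markers summed to 69.2 to 195 CPM in central axon Cre libraries and to 4389 to 8261 CPM in peripheral axon Cre libraries. The ranges of these sums did not overlap.

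**Figure D4:**
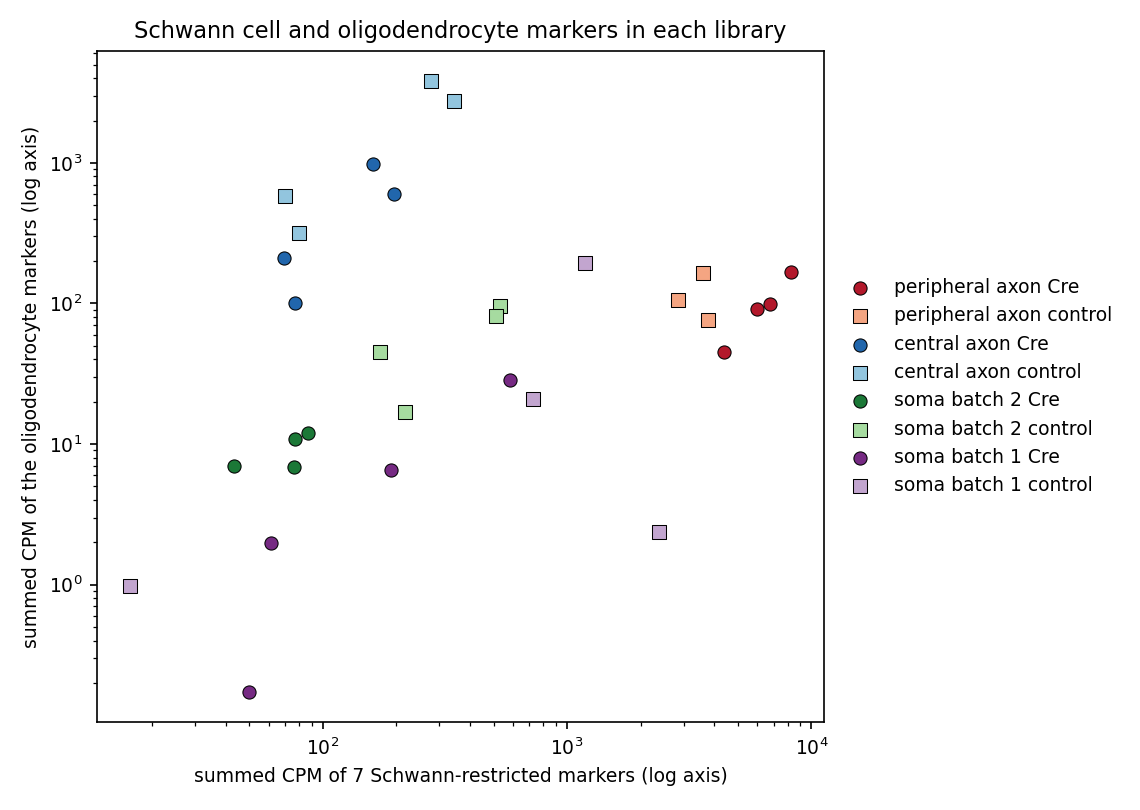
Summed CPM of 7 Schwann-restricted markers (log axis) against that of 12 oligodendrocyte markers (log axis) in each library; circles are Cre libraries and squares are controls. Central axon libraries lie at the upper left, peripheral axon libraries at the right (4389 to 8261 CPM with Cre), and soma Cre libraries lower down, at 28.7 CPM of oligodendrocyte markers or less.

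Compared with their controls, the central axon Cre libraries differed from gene to gene in sign. Of the 7 genes tested, 4 had a fold change above 0 and 3 below, from -2.17 ± 1.17 for Mbp through -1.23 ± 0.94 for Prx and -0.67 ± 0.88 for Mag to 2.15 ± 1.06 for Pmp22 and 3.95 ± 2.07 for Ncmap. Mal was at 0.49 ± 1.78 and Egr2 at 1.93 ± 2.21, and Cldn19 did not pass the filter. Pmp22 was at 472, 212, 192 and 221 CPM with Cre and at 48.7, 9.85, 1.98 and 194 CPM without, so that the groups overlapped at 192 to 194 CPM. None was called by edgeR, DESeq2 or limma voom, in a comparison where 0.0141% of the 14189 genes tested were (2 genes; 216 with DESeq2 and 137 with limma voom). The groups were apart for Ncmap alone, with Cre higher, as for 6.77% of all genes tested. The median of the 7 was 0.49 in this fit and 0.11 over all genes tested, 3.33 and 1.21 with limma voom, and 3.79 and 0.77 with a replicate block. With 1 library left out it ran from -0.22 without Cre replicate 4 to 0.44 without Cre replicate 2. It was -0.14 without control replicate 3, 0.01 without Cre replicate 1, 0.11 without Cre replicate 3 and 0.08 without control replicate 4. Cldn19 passed the filter without Cre replicate 1, 3 or 4 or control replicate 2 or 3, so those medians are over 8 genes. The median was also below 0 without the filter on low counts (-0.09) and when the 4 groups were fitted jointly (-0.12). Nociceptor markers had 10 of 10 fold changes above 0, and Scn11a, a nociceptor sodium channel gene, was at 23.6 to 136 CPM with Cre and 0 in all 4 controls (edgeR adjusted p = 0.161).

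Relative to the somas of batch 1, Mbp and Mag were called higher by edgeR in central axon Cre libraries and the other 6 genes were not called. The log2 fold changes were 3.42 ± 0.96 for Mbp and 2.34 ± 0.70 for Mag. They were 0.44 ± 1.45 for Egr2, -0.14 ± 0.61 for Ncmap, -0.34 ± 0.60 for Prx, -0.94 ± 0.41 for Mal, -1.13 ± 0.44 for Pmp22 and -2.21 ± 1.14 for Cldn19. In this comparison 13.7% of 14480 genes were called and 8.63% were called higher. The count of calls was 0 without central axon replicate 2 or 4 or without soma replicate 1, 2 or 3. In those fits 822 to 1386 of all genes were called, against 1990 in the main fit. The count was 1 without central axon replicate 3 (1049 genes) and 3 without central axon replicate 1 (2717 genes). The fit of all 4 groups of the batch gave 0, limma voom gave 1, and DESeq2 gave 3, with Pmp22 added at -1.11. Over all genes, these called 15, 2361 and 3143.

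Markers of spinal cord and Schwann cells were tested in the same fit. Of the 7 oligodendrocyte markers tested, 5 rose in central axons over somas, among them the lineage factors Olig2 (9.06 ± 0.83, edgeR adjusted p = 5.96e-05) and Olig1 (8.37 ± 0.97, 0.000269) and the membrane protein gene Tmem88b (5.77 ± 1.22, 0.00977). Nkx6-2, another lineage factor, was at 5.19, 22.1, 3.08 and 11.5 CPM in central axons and at 0 in the 4 somas (adjusted p = 0.00416 by edgeR). Astrocyte markers rose in 5 of 6 genes, with Aqp4, the water channel of astrocyte endfeet, at 7.15 ± 0.89 (0.0004). Spinal neuron markers rose in 6 of 6, and the GABA-synthesis gene Gad2 was at 22.6 to 60.2 CPM against 0 in the 4 somas (7.39e-05). With most soma libraries at 0 for Olig1 and Olig2, the size of their fitted fold changes depends on the prior count. Of the Schwann-restricted markers 1 of 5 tested rose, Drp2, a partner of periaxin (2.40 ± 0.54, 0.0128), and of the myelin genes of both glia 1 of 7, Cnp (1.74 ± 0.48, 0.0321). No lipid enzyme of 10 passed.

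Taken relative to somas of the same batch, central axons lay below peripheral axons for all 8 genes. The difference was -8.78 ± 1.07 on the log2 scale for Cldn19, -6.53 ± 0.85 for Prx, -5.85 ± 1.47 for Egr2, -5.71 ± 0.73 for Ncmap, -5.43 ± 0.56 for Mal and -3.74 ± 0.69 for Pmp22, the 6 genes called lower. It was smallest for the 2 other genes, Mag at -2.71 ± 0.92 and Mbp at -2.11 ± 1.10, which edgeR did not call. DESeq2 called 7 of the 8, with Mag added at -2.82, as did edgeR with other size factors (RLE) and without the filter on low counts, and limma voom called 5. Over all genes, these called 3290, 2235, 2392 and 3179, against 2187 in the main fit. Of the 16725 genes tested 13.1% were called and 5.88% were called lower. The median was -5.57 for the 8 genes and 0.26 for all genes tested.

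Other genes of the lists were tested in the same fit. Gjc3 (-7.95 ± 1.13, edgeR adjusted p = 0.000358), Erbb3 (-7.18 ± 0.98, 0.000248), Utrn (-4.09 ± 0.52, 0.000175) and Ugt8a (-5.41 ± 1.34, 0.013) were lower on the central side. Of the Schwann-restricted markers 6 of 7 were lower, of the regulators 8 of 16, and none of either list was higher. Of the 8 oligodendrocyte markers tested 2 were higher on the central side, Olig1 (0.000874) and Nkx6-2 (0.00362), whose fitted sizes depend on the prior count because a group was at 0. Of the 6 astrocyte markers 4 were higher, among them Aqp4 (7.95 ± 1.26, 0.000812) and Aldh1l1 (6.25 ± 1.18, 0.00265). Fibroblast markers were lower in 4 of 6 and muscle markers in 4 of 4. The central and peripheral libraries come from separate batches, and the tissue collected with the axons differs between them, spinal cord in one and nerve in the other.

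**Figure D5:**
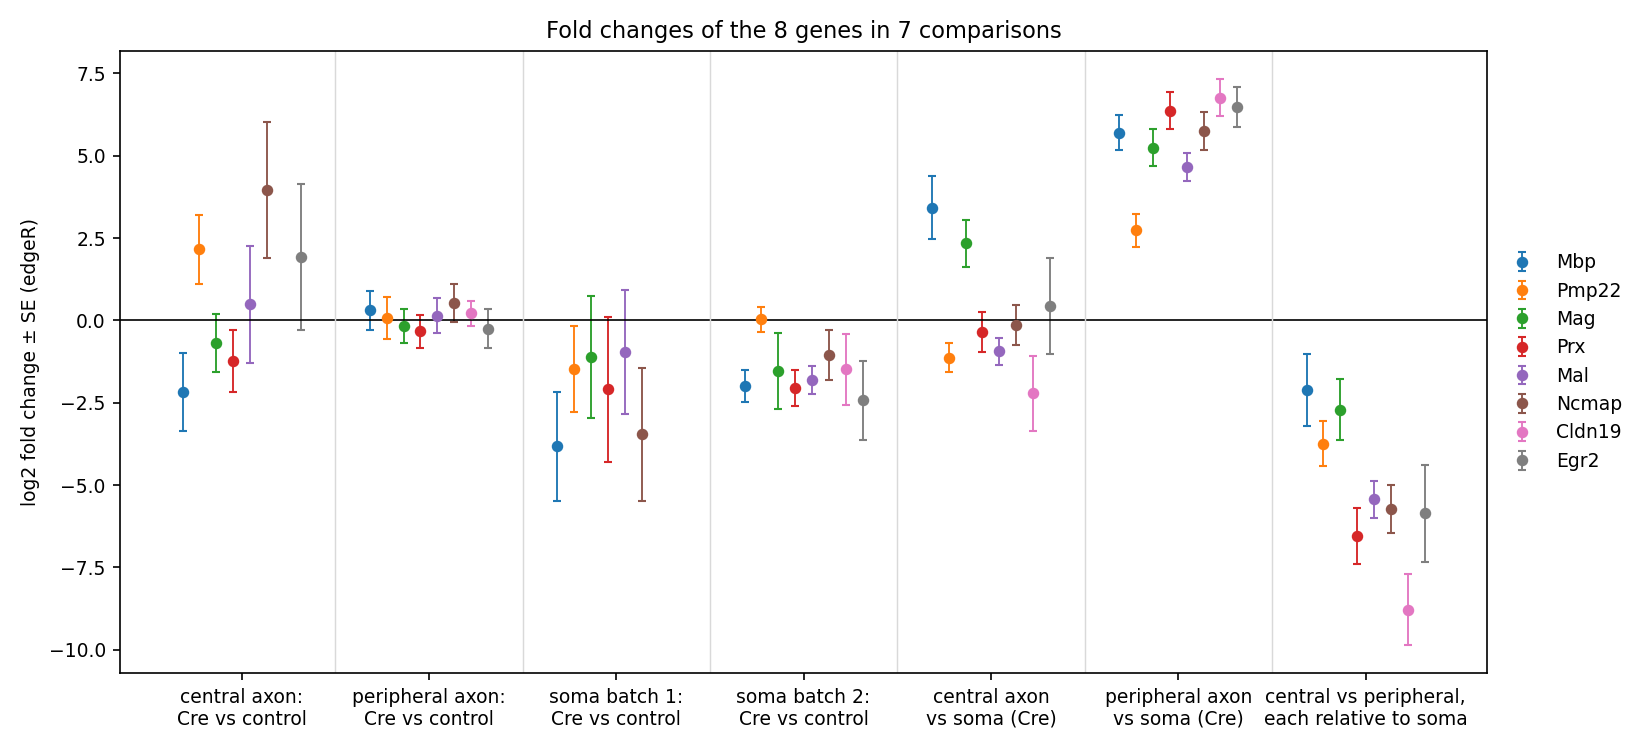
Log2 fold change ± SE (edgeR) of each of the 8 genes in the 7 comparisons; a gene that did not pass the filter on low counts has no point. Values lie near 0 for Cre against control in peripheral axons and between 2.74 and 6.76 for peripheral axons against somas.

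Across the 31 libraries the 8 genes did not follow each other equally. The Pearson correlation of log2 CPM between a gene and the mean of the other 7 was 0.44 for Mbp and 0.87 for Egr2, and the others lay from 0.64 (Pmp22) to 0.85 (Prx). The lowest value for any pair was 0.13, between Mbp and Mal, and the highest was 0.84, between Ncmap and Egr2. The libraries share tissue, batch and depth, so these values are a description. Among the 12553 other genes with a mean of at least 5 CPM, those most like the mean of the 8 were Gjc3 (r = 0.90), Lama4 (0.89), Mlip (0.89), Fkbp9 (0.89) and Ddn (0.89), over 31 libraries. Gjc3, a connexin gene of myelinating glia, was at 935, 315, 527 and 592 CPM in the peripheral axon Cre libraries and at 0.943 to 16.4 CPM in the central axon Cre libraries. Lama4, a laminin chain gene, was at 230 to 420 CPM and at 9.50 to 32.7 CPM in the same groups. Ranked by Spearman's rho, 2 of these 5 remained among the first 5.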

How the data were processed

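The 31 libraries of 8 groups, taken from the labels, come from pull-downs of GFP-tagged ribosomes of mouse sensory neurons. The controls without Cre hold RNA recovered without a tagged ribosome. The deposited values are raw counts of reads, in 1 table for each of the 2 batches, with the same 55536 gene identifiers in both. Per the labels, yields were below 1 ng and libraries were made with a SMART-Seq kit, so amplified reads are not independent molecules. STAR 2.7.2b and the mm10 build are named in the submitters' processing notes; the counter, its strand setting and filters are not given in the sources used here. All 55536 identifiers and the 8 genes were matched to GENCODE M21.

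CPM used the total of each library, and RPKM the merged exon length. Tests used edgeR 4.0.16 (R 4.3.3) on all genes of its groups (filterByExpr with a minimum count of 10 and minimum total of 15, TMM scaling, quasi-likelihood test, Benjamini-Hochberg adjustment over all genes tested), and an adjusted p under 0.05 was a call. SEs are the fold change divided by the root of the F statistic. The scripts were tested on simulated data. Alternatives were DESeq2 1.42.0, limma 3.58.1 (voom), other scalings, no filter on low counts, a fit of all 4 groups of a batch, a replicate block, and leaving out each library. The 8 genes and the 13 lists were chosen with earlier results of these data known. From each list and comparison up to 4 genes per direction with the smallest adjusted p were named, or up to 2 with the smallest p where none passed, and the 5 genes most like the 8 by Pearson's r (log2 CPM, prior count 2). Some genes of the lists are not reported by name here.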

Additional observations from a re-analysis of the deposited data

Results flagged for a closer look

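Among 63 sets of 4 libraries, 15 had a highest or lowest library whose gap to the nearest one exceeded, as a share of the range, the 95% critical value of Dixon's test. Chance gives about 1 such library in 20 sets, and the genes were selected on these data, so this is a description.

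Peripheral axon Cre replicate 1 lay above its group for Mbp (8918 CPM), Pmp22 (7101 CPM), Ncmap (914.1 CPM) and the sum of the 8 genes (20633 CPM). Soma control replicate 1 of batch 1 lay above the other controls for Mag (46.49 CPM), Prx (409.8 CPM), Mal (220.3 CPM) and Egr2 (104.6 CPM). In central axon controls, replicate 1 stood above the rest for Ncmap (2.343 CPM) and Egr2 (4.849 CPM), and replicate 4 for Cldn19 (9.008 CPM). Among the central axon Cre libraries, replicate 1 stood high for Pmp22 (472.4 CPM), replicate 2 for Prx (62.69 CPM) and Cldn19 (3.677 CPM), and replicate 3 low for Mal (11.12 CPM). No cause was tested.

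The difference from somas was lower for central than for peripheral axons in 6 genes by the interaction term of the edgeR fit. The log2 differences were -3.74 for Pmp22, -6.53 for Prx, -5.43 for Mal, -5.71 for Ncmap, -8.78 for Cldn19 and -5.85 for Egr2. Batch and axon type cannot be told apart in this term beyond the somas each batch held.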

How the results depend on the processing

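For the 22 summary results, 90 of 100 values under other settings and 147 of 157 with 1 library left out stayed within set limits. For a median fold change the limit was the within-group SD of the libraries' median log2 CPM, so a change of sign could stay within it. No fold change of a single gene changed sign while called in either fit. All 8 genes were called higher in peripheral axons than in somas in every alternative and with any library left out. Over all genes, 6132 were called there by DESeq2, 6021 by limma voom and 3220 to 6055 with 1 library left out. The median over the genes for central axon Cre against control, 0.49 over 7 genes, was 3.33 with limma voom and 3.79 with a replicate block. With 1 library left out it ran from -0.22 (8 genes) to 0.44 (7 genes), and the cause was not tested. For batch 1 somas, Cre against control, 0 of the 8 genes were called. The count was 1 without the filter, with DESeq2 and with all 4 groups fitted together, where 1700, 1902 and 2114 of all genes were called. It was 0 to 2 with 1 library left out (0 to 3094 of all genes). The median, -1.79 over 6 genes, then ran from -2.10 (8 genes) to 2.39 (7 genes). For batch 2 somas the count, 0, was 2 with library size only, 3 with DESeq2 and 1 with all 4 groups. Over all genes, these called 257, 1160 and 175. With 1 library left out the count was 0 to 2 (0 to 1826 of all genes). For central axons against somas the count, 2, was 1 with limma voom, 0 with all 4 groups and 3 with DESeq2. Over all genes, these called 2361, 15 and 3143, against 1990. With 1 library left out the count was 0 to 3 (822 to 2717 of all genes). For central against peripheral axons the count, 6, ran from 5 (limma voom, 3179 of all genes) to 7 (DESeq2, 3290 of all genes). In central axons and somas, r between the deviations of libraries with the same number was 0.20, -0.01, 0.09 and 0.18. The mean r with other numbers was lower each time, at -0.04, -0.02, -0.02 and -0.07. The main fits did not pair libraries by number, and whether a shared number marks the same mice was not tested. The replicate block left the count of the 8 genes called the same in the 5 comparisons that share numbers. Genes at or under 3 counts, such as Cldn19 in central axons, are limited by depth.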
